A study of Caenorhabditis elegans with 2 samples.

Results

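The 10 genes described here encode enzymes with which Caenorhabditis elegans removes superoxide and hydrogen peroxide. They are 4 superoxide dismutases (sod-1, sod-2, sod-4 and sod-5), 3 catalases (ctl-1, ctl-2 and ctl-3) and 3 peroxiredoxins (prdx-2, prdx-3 and prdx-6). The dismutase gene sod-3 was left out of this set, so sums over the dismutases do not cover the whole class. The 10 genes were found by their symbols among the 46135 genes of the deposited table, and all 10 were present. The study set whole lsm-1(tm3585) mutant larvae at the L3 stage, from a strain backcrossed to N2, against wild-type N2 larvae of that stage. Larvae of both genotypes were synchronised at L1 and then kept for 26 hours at 25 °C, and their total RNA was depleted of ribosomal RNA. There was 1 library per genotype, so no difference below has a replicate check. Levels are FPKM, fragments scaled by transcript length and by library size, as the authors deposited them.

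Superoxide leaks from the respiratory chain and is turned by superoxide dismutases into hydrogen peroxide and oxygen, in the cytosol by copper and zinc enzymes and in mitochondria by manganese enzymes. Catalases split hydrogen peroxide into water and oxygen, while peroxiredoxins reduce it through a reactive cysteine that thioredoxin recharges. In worms several of these genes are known to respond to the transcription factors DAF-16 and SKN-1. The lsm-1 product belongs to the Lsm ring of the cytoplasm, which takes part in the decapping of messenger RNAs before their decay.

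Within this set, the cytosolic dismutase transcript sod-1 and the peroxiredoxin transcript prdx-2 stood higher in the mutant library, and the 3 catalases stood at nearly equal levels in both libraries. A gene was called measured where the FPKM reached 1 in at least 1 of the libraries, and 9 of the 10 genes were. Differences are log2(FPKM + 1) in the mutant minus the same in N2, a scale that understates the change of low genes. By a rule of at least 2-fold, a difference of 1, 2 of the 9 measured genes (sod-1 and sod-2) were higher in the mutant, against a background of 13.6% of the 14838 measured genes. None of the 9 was lower, against 12.2% of measured genes. One of these 2, sod-2, was listed at 0 in N2, where an FPKM of 0 can be a failed estimate. Among the 8 members above 0 in all 4 FPKM columns, 1 was higher (sod-1), against 6.57% of such genes, and none was lower, against 3.86%. The authors' deposited table held a usable test for 6 of the members, and 1 of them (sod-1) passed it, against 3.76% of the 17570 genes with a usable test, or 2.35% counting higher genes only. That test compares the reads of 2 libraries and not the genotypes.

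The median difference of the 9 measured members was 0.20, beside 0.24 for all measured genes, which is a factor of 1.18. Relative to that median, 4 members lay above it (sod-1, sod-2, prdx-2 and prdx-6) and 5 below it. Differences minus the median of measured genes are called centred. Only the call of sod-2 met the 2-fold rule after centring, because the centred difference of sod-1 was 0.94. The share of measured genes at least 2-fold higher then came to 10.5%, and the share at least 2-fold lower to 14.7%.

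**Figure D1:**
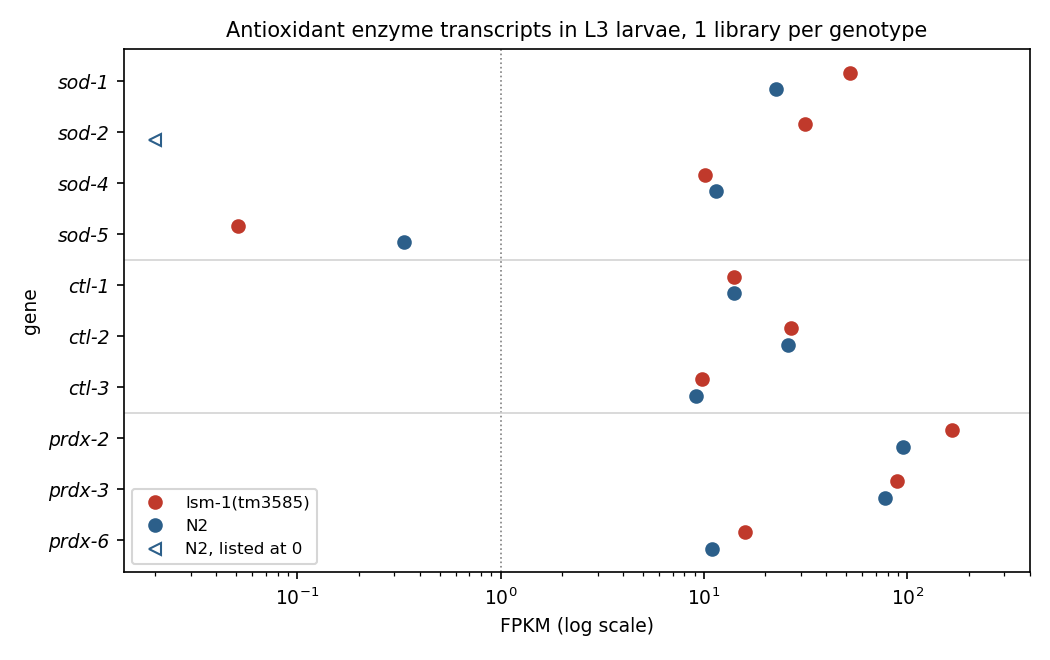
FPKM on a log axis of each gene in the lsm-1(tm3585) library (red) and in the N2 library (blue), 1 library each, with the dotted line at an FPKM of 1. The sod-1 and prdx-2 points lie apart (sod-1 at 52.1 FPKM in the mutant and 22.5 in N2, prdx-2 at 166 in the mutant and 95.2 in N2), those of each catalase nearly coincide, and the open triangle at the left edge marks sod-2, listed at 0 in N2.

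Low FPKM values of genes with a single annotated transcript fall on steps of whole fragments, and the depth was read from those. The steps corresponded to about 10.99 M fragments in the mutant library and 9.09 M in the N2 library, and to 8.89 M in the mutant and 7.17 M in N2 without a correction of transcript length. For 36.3% of 2153 values in the mutant and 19.8% of 2338 values in N2, the FPKM lay within 0.06 of a whole number of fragments. By chance 12% would do so at a fixed step, but the steps were chosen to give the largest share. The excess over 12% can thus be overstated, and the N2 estimate is the less firm. The numbers of fragments below use these steps and the shortest annotated transcript, and the 95% intervals of ratios (exact Clopper-Pearson on the share of fragments) cover counting error only. The lsm-1 transcript itself had 5.94 FPKM in the mutant library and 10.2 in the N2 library, a ratio of 0.581 with an interval of 0.306 to 1.04, and is a weak check of the labels.

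The superoxide dismutases differed most among themselves. The sod-1 gene (C15F1.7, chromosome II) encodes the main cytosolic copper and zinc dismutase. Its transcript stood at 52.1 FPKM in the mutant library and 22.5 in the N2 library, a ratio of 2.32. These levels rest on about 147 fragments in the mutant and 52.6 in N2, and the interval of the ratio ran from 1.67 to 3.20, which lies above both 1 and the factor of 1.18 seen across measured genes. In the authors' deposited table sod-1 passed the test (log2 fold change 1.21, p = 0.000257, q = 0.0104). Of all measured genes, 11.03% had a higher difference than sod-1. A further pair of FPKM columns, whose names match the same 2 libraries, gave 45.5 FPKM in the mutant and 19.6 in N2, a ratio of 2.33.

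One end of sod-1 is annotated as overlapping C15F1.13, a non-coding RNA of 104 bases on the opposite strand, by 85 bases. C15F1.13 was listed at 49.8 FPKM in the mutant and at 0 in N2, and did not pass the test in the authors' deposited table (q = 0.675). The sources do not say whether strand was used in counting, so reads of both genes over those bases cannot be told apart. The nearest gene on the same strand, art-1, had 37.9 FPKM in the mutant and 25.2 in N2, a difference of 0.57 that did not pass the test in the authors' deposited table.

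The sod-2 gene (F10D11.1, chromosome I) encodes a manganese dismutase of the mitochondrial matrix. It was listed at 31.4 FPKM in the mutant library and at 0 in the N2 library, and its test was marked as failed, so no fold is given. The further pair had 26.8 FPKM in the mutant and again 0 in N2. All 1258 bases of sod-2 lie within the span of dpt-1, a gene on the opposite strand. That gene showed the same pattern: dpt-1 stood at 17.6 FPKM in the mutant, was listed at 0 in N2, and also carried a failed test. A failed test was given to 647 measured genes, 4.36% of them, and 172 of these (26.6%) were listed at 0 in 1 library. Of all measured genes, 17.2% were listed at 0 in 1 library. The value of sod-2 in N2 is therefore not read as a loss of the transcript.

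The sod-4 gene (F55H2.1, chromosome III) encodes a copper and zinc dismutase that is secreted or bound to the cell surface. Its transcript stood at 10.2 FPKM in the mutant library and 11.4 in the N2 library, with a centred difference of -0.39. The ratio was 0.888, and its interval of 0.601 to 1.32 holds both 1 and 1.18. In the authors' deposited table sod-4 did not pass the test (q = 0.986). It shares 175 bases with ctr-9 (B0464.2 in the table) on the opposite strand, which had 13.1 FPKM in the mutant and 11.1 in N2.

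The sod-5 gene (ZK430.3, chromosome II) encodes a second cytosolic copper and zinc dismutase, known for its expression in dauer larvae. It was listed at 0.0511 FPKM in the mutant library and 0.333 in the N2 library. These values correspond to about 0.273 fragments in the mutant and 1.47 in N2, below the level of 3 fragments, which is 0.562 FPKM in the mutant and 0.679 in N2. A difference in sod-5 was not detectable at this depth, and the gene was not tested by the authors.

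Because FPKM is scaled by length, levels can be compared between genes of 1 library. The level of sod-1 was 5.13 times that of sod-4 in the mutant library and 1.97 times in the N2 library. Summed without sod-2, the dismutases of this set came to 62.4 FPKM in the mutant and 34.3 in N2, a ratio of 1.82. Of these 3 genes, sod-1 alone was higher in the mutant, while sod-4 was slightly lower and sod-5 was near 0 in both libraries. With sod-2 the sums were 93.7 FPKM in the mutant and 34.3 in N2, but the N2 sum counts sod-2 as 0.

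The catalases were the class whose summed level differed least between the libraries. The genes lie side by side on the same strand of chromosome II with no other annotated gene between them, and they are closely related copies. The authors' counting could split reads between such copies, so each single value is less certain than their sum. The ctl-2 gene (Y54G11A.5) encodes the peroxisomal catalase and had the highest level, 26.8 FPKM in the mutant library and 26.0 in the N2 library. Its ratio was 1.03, with an interval of 0.890 to 1.20 from about 410 fragments in the mutant and 329 in N2. The ctl-1 gene (Y54G11A.6), which encodes a cytosolic catalase, stood at 14.02 FPKM in the mutant library and 13.98 in the N2 library. The ratio of ctl-1 was 1.003, with an interval of 0.810 to 1.23. The ctl-3 gene (Y54G11A.13) encodes the remaining catalase and stood at 9.82 FPKM in the mutant library and 9.09 in the N2 library. Its ratio was 1.08, with an interval of 0.832 to 1.41.

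None of the 3 catalases passed the test in the authors' deposited table, with q-values of 1, 0.980 and 0.949 for ctl-1, ctl-2 and ctl-3. Of all genes with a usable test, 3.76% passed it. All 3 catalase intervals hold 1 and also hold 1.18, the factor of the median measured gene, and all 3 end below 2. Centred, the differences were -0.23 for ctl-1, -0.19 for ctl-2 and -0.14 for ctl-3, so all 3 lay just below the median of measured genes. At its other end ctl-2 shares 65 bases with Y54G11A.7 on the opposite strand, which had 6.49 FPKM in the mutant and 3.69 in N2.

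The makeup of the catalase transcripts was nearly the same in both libraries. Of their summed FPKM, ctl-2 made up 52.9% in the mutant and 53.0% in N2. The share of ctl-1 was 27.7% in the mutant and 28.5% in N2, and that of ctl-3 was 19.4% in the mutant and 18.5% in N2. The sums were 50.6 FPKM in the mutant and 49.1 in N2, a ratio of 1.03.

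**Figure D2:**
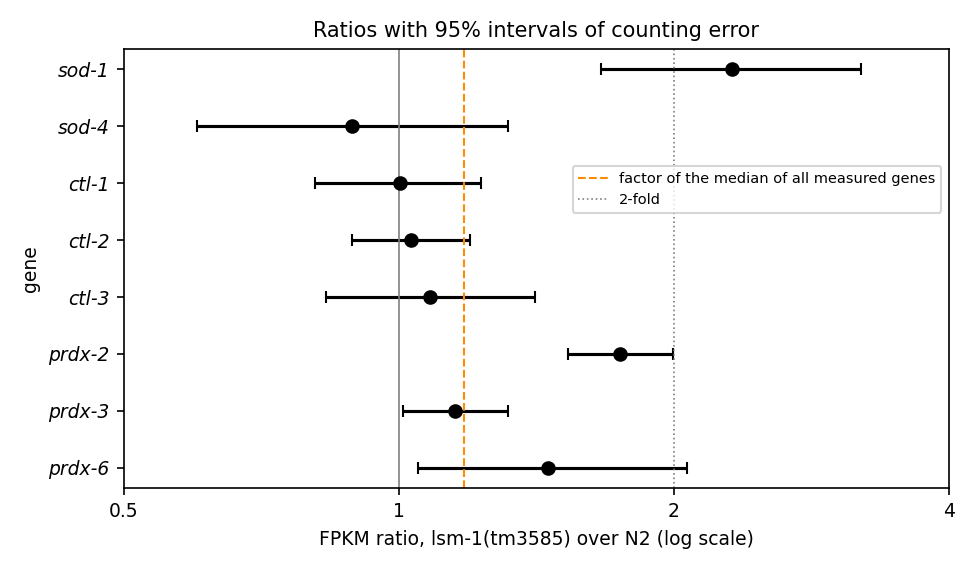
FPKM ratio of the lsm-1(tm3585) library over the N2 library for the 8 genes above the level of a few fragments in both, on a log axis, with bars for 95% intervals of counting error. The bars of sod-1 and prdx-2 lie to the right of the dashed line at 1.18, the factor of the median measured gene, while those of the other 6 genes cross it.

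The peroxiredoxins had the highest summed level of the 3 classes, as made up here, in both libraries. The prdx-2 gene (F09E5.15, chromosome II) encodes the cytosolic 2-cysteine peroxiredoxin. Its transcript was the highest of the 10, at 166 FPKM in the mutant library and 95.2 in the N2 library, and higher than 97.3% of measured genes in the mutant and 96.6% in N2. The ratio of prdx-2 was 1.75, with an interval of 1.53 to 1.999 from about 695 fragments in the mutant and 329 in N2, and so lies above 1.18. Its centred difference of 0.56 is within the 2-fold rule, and 17.8% of measured genes had a higher difference. The authors' test of prdx-2 was marked as failed, so the deposited table gives no p-value for it. A gene on the same strand, pkc-3, lies 395 bases from prdx-2, also carries a failed test, and had 13.9 FPKM in the mutant and 10.3 in N2.

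The prdx-3 gene (R07E5.2, chromosome III) encodes the mitochondrial peroxiredoxin. Its transcript stood at 89.4 FPKM in the mutant library and 77.6 in the N2 library. The ratio was 1.15, with an interval of 1.01 to 1.32, and the centred difference was -0.03, at the median of measured genes. Its test too was marked as failed. A neighbour of prdx-3, rnp-4, which lies 120 bases from it on the same strand, had 46.0 FPKM in the mutant and 34.5 in N2.

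The prdx-6 gene (Y38C1AA.11, chromosome IV) encodes a 1-cysteine peroxiredoxin and was the lowest of the class. Its transcript stood at 15.9 FPKM in the mutant library and 10.9 in the N2 library. The ratio of 1.45 had an interval of 1.05 to 2.07, which holds 1.18, and prdx-6 did not pass the test in the authors' deposited table (q = 0.555). Its centred difference was 0.27.

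The 3 peroxiredoxins summed to 272 FPKM in the mutant and 184 in N2, a ratio of 1.48. Of this, prdx-2 made up 61.2% in the mutant and 51.8% in N2, and prdx-3 made up 32.9% in the mutant and 42.2% in N2. The share of prdx-6 was 5.85% in the mutant and 5.95% in N2.

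Ratios between genes of 1 library do not depend on how the 2 libraries were scaled against each other. The level of sod-1 was 1.03 times the summed level of the catalases in the mutant library and 0.459 times in the N2 library. Against ctl-2 alone, sod-1 stood at 1.95 times in the mutant and 0.867 times in N2. By listed FPKM, sod-1 was thus above ctl-2 in the mutant and below it in N2. No interval was computed for ratios between genes. The level of sod-1 in N2 rests on about 52.6 fragments, so its place below ctl-2 there is not firm. The peroxiredoxins summed to 5.37 times the catalases in the mutant and 3.75 times in N2. The level of prdx-2 was 1.86 times that of prdx-3 in the mutant and 1.23 times in N2. The further FPKM pair carries the names of the same 2 libraries, so its nearly equal ratios are not a second measurement. In that pair sod-1 over the catalases was 1.03 in the mutant and 0.454 in N2. There prdx-2 over prdx-3 was 1.89 in the mutant and 1.21 in N2.

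**Figure D3:**
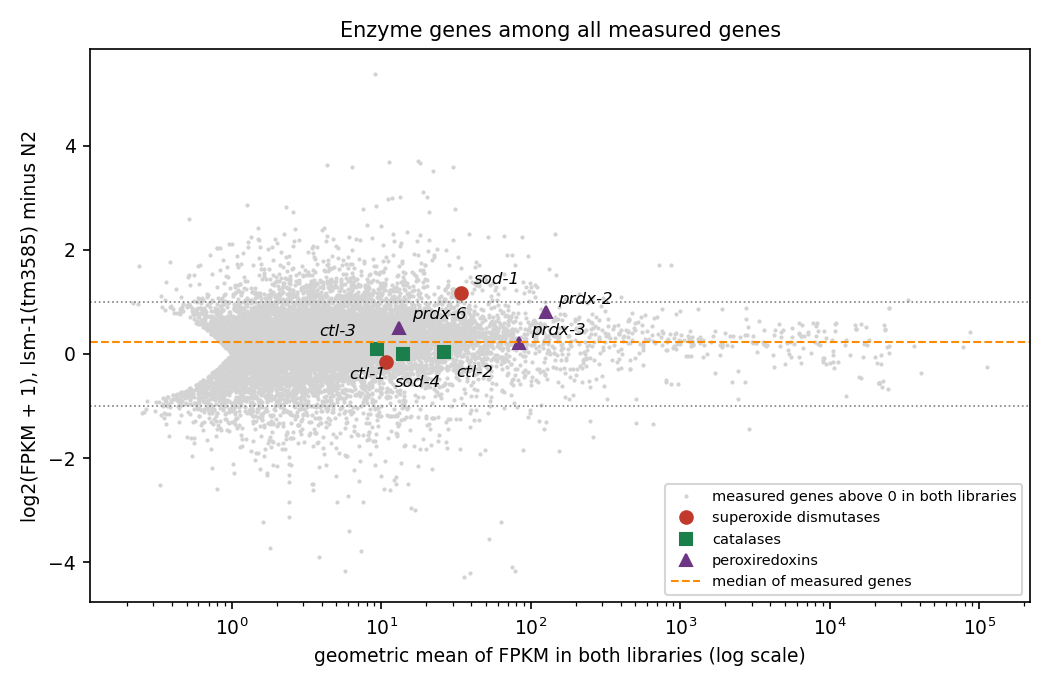
Difference in log2(FPKM + 1), lsm-1(tm3585) minus N2, against the geometric mean of the FPKM in both libraries for measured genes above 0 in both (grey), with the 8 enzyme genes of the ratio plot coloured by class. The sod-1 point lies above the dotted line at 1, prdx-2 lies between it and the dashed median of 0.24, and the 3 catalases and sod-4 lie just below the median.

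Genes that work beside these enzymes were described from 10 lists with 59 entries, of which 56 were in the table and 51 were measured. Of the 51, 9 were at least 2-fold higher in the mutant and 1 was lower, beside 13.6% and 12.2% of measured genes. After centring the counts were 3 and 5, beside 10.5% and 14.7% of measured genes. The median centred difference was 0.06. By the authors' deposited calls, 4 of the 45 genes with a usable test passed it: trxr-2, idh-1, skn-1 and wdr-23, all higher in the mutant. Across all genes with a usable test the share was 3.76%, or 2.35% counting higher genes only. Of the 4, trxr-2 and wdr-23 were listed at 0 in N2, where an FPKM of 0 can be a failed estimate. In the further pair, skn-1 too was listed at 0 in N2, and wdr-23 at 0 in both libraries.

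Glutathione peroxidases, which reduce peroxides with glutathione, had 3 of 8 measured genes at least 2-fold higher and none lower. Of all measured genes, 13.6% were higher and 12.2% lower. None of the 8 passed the authors' test, against 3.76% of all genes with a usable test. The gpx-5 transcript had 24.9 FPKM in the mutant and 10.2 in N2, and gpx-1 had 30.9 in the mutant and 13.9 in N2. The gpx-8 transcript was listed at 1.24 FPKM in the mutant, about 2.96 fragments, and at 0 in N2. The lowest by difference was gpx-4, at 0.391 in the mutant and 1.43 in N2. After centring none of the 3 met the 2-fold rule, against 10.5% of all measured genes, while gpx-4 lay at -1.04. The share of all measured genes at least 2-fold lower was then 14.7%.

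The thioredoxin system recharges the peroxiredoxins. Against 13.6% of all measured genes, 1 of its 6 measured genes was at least 2-fold higher, and none was lower, against 12.2%. That gene, trxr-2, encodes the mitochondrial thioredoxin reductase. It was listed at 2.53 FPKM in the mutant and at 0 in N2, and passed the test in the authors' deposited table. The cytosolic thioredoxin reductase transcript trxr-1 had 19.2 FPKM in the mutant and 19.9 in N2, and trx-3 was the lowest, at 12.6 in the mutant and 18.9 in N2. The 3 measured glutaredoxins lay within the rule, beside 13.6% of measured genes higher and 12.2% lower. Of these, glrx-21 had 18.2 FPKM in the mutant and 16.3 in N2, and glrx-10 had 46.3 in the mutant and 50.3 in N2.

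Of the enzymes that make and reduce glutathione, none of 3 passed the 2-fold rule, beside 13.6% of measured genes higher and 12.2% lower. The rate-limiting enzyme of glutathione synthesis is encoded by gcs-1, which had 11.2 FPKM in the mutant and 5.52 in N2, with a failed test. The FPKM ratio of gcs-1 was 2.04, but its difference in log2(FPKM + 1) was 0.91, short of the rule. The glutathione reductase transcript gsr-1 had 37.7 FPKM in the mutant and 33.6 in N2. Methionine sulfoxide reductase, which repairs oxidised methionine, is encoded by msra-1, at 40.5 FPKM in the mutant and 73.0 in N2, a centred difference of -1.07. The sestrin transcript sesn-1 had 3.35 FPKM in the mutant and 2.55 in N2. Neither of these last 2 passed the authors' test, against 3.76% of all genes with a usable test.

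Among genes that supply NADPH, 1 of 4 measured was at least 2-fold higher, against 13.6% of all measured genes. The isocitrate dehydrogenase transcript idh-1 had 144 FPKM in the mutant and 54.9 in N2, and passed the test in the authors' deposited table. At the other end was nnt-1, which encodes the mitochondrial transhydrogenase, at 4.16 FPKM in the mutant and 8.18 in N2. Of the 3 measured genes for hydrogen peroxide production and peroxidases, mlt-7, a cuticle peroxidase gene, had 13.6 FPKM in the mutant and 5.51 in N2 without passing that test (q = 0.0829). The dual oxidase transcript bli-3 had 2.46 FPKM in the mutant and 2.82 in N2.

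Of 5 measured regulators 3 had a usable test, and 2 of these passed it in the authors' deposited table, against 3.76% of all genes with a usable test. The skn-1 transcript, which encodes a transcription factor of detoxification genes, had 8.97 FPKM in the mutant and 3.84 in N2. In the further pair it had 7.98 FPKM in the mutant and was listed at 0 in N2. The wdr-23 transcript, which encodes a protein that promotes the breakdown of SKN-1, was listed at 19.3 FPKM in the mutant and at 0 in N2, and the further pair had 0 in both. The lowest of this list, pqm-1, had 3.45 FPKM in the mutant and 3.03 in N2. In the further pair pqm-1 was listed at 0 in the mutant and had 2.66 FPKM in N2.

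Iron and copper handling was the list with the only gene at least 2-fold lower by the rule, 1 of 6, against 12.2% of all measured genes. The metallothionein transcript mtl-2 had 26.3 FPKM in the mutant and 59.0 in N2, and cua-1, a copper transporter gene, was the highest of the list at 10.99 in the mutant and 6.62 in N2. None of these 6 passed the authors' test, against 3.76% of all genes with a usable test. Genes of peroxisome biogenesis build the organelle that houses ctl-2. Of these 11 genes, 1 was at least 2-fold higher and none lower, beside 13.6% and 12.2% of all measured genes. That gene was prx-13, at 12.8 FPKM in the mutant and 5.83 in N2, and the lowest was prx-2, at 7.20 in the mutant and 8.64 in N2. Their median centred difference was 0.00.

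**Figure D4:**
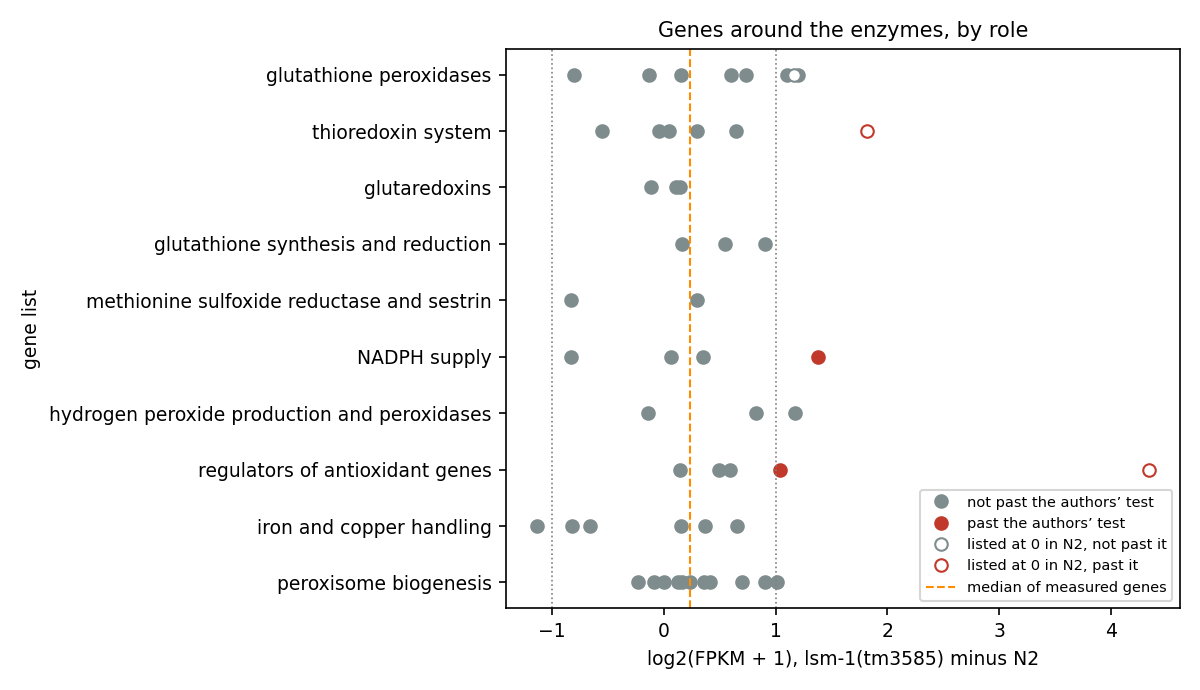
Difference in log2(FPKM + 1), lsm-1(tm3585) minus N2, of each measured gene of the 10 lists, 1 row per list, with red for genes past the authors' test and open symbols for genes listed at 0 in N2. Most points lie between the dotted lines at -1 and 1, and the 4 red points (trxr-2, idh-1, skn-1 and wdr-23) lie to the right.

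Whole larvae hold all tissues, and in bulk RNA fewer cells of a type and less RNA per cell cannot be told apart. The markers of 4 epidermal genes summed to 163 FPKM in the mutant and 82.4 in N2, and all 4 lay above the median of measured genes. Body wall muscle markers summed to 82.0 FPKM in the mutant and 52.3 in N2, with 3 of 3 measured genes above it and unc-15 listed at 0 in both. Neuron markers summed to 91.0 FPKM in the mutant and 60.2 in N2, with 4 of 4 above it and rab-3 listed at 0 in N2. Those of 5 germ line genes summed to 29.9 FPKM in the mutant and 47.1 in N2, and all 5 lay below it. The 5 intestinal markers summed to 170 FPKM in the mutant and 115.4 in N2, with ges-1 listed at 0 in both. Of the 4 measured, 3 lay above the median, while elt-2 had 1.41 FPKM in the mutant and 2.59 in N2. The 5 adult markers reached at most 0.898 FPKM in either library. At least 2-fold higher were 3 epidermal, 1 muscle and 1 neuron marker, and 1 germ line marker was lower. The shares of all measured genes were 13.6% and 12.2%. The authors' test was passed by 3 epidermal and 1 germ line marker, against 3.76% of genes with a usable test. The median centred difference was 1.17 for epidermal, 0.49 for muscle, 0.29 for intestinal, 0.21 for neuron and -0.97 for germ line markers. The part of these tissues in the levels of sod-1 and prdx-2 was not tested.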

How the data were processed

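RNA of 2 libraries, 1 per genotype, was compared from 1 table of 46135 genes. TopHat, Cufflinks and Cuffdiff are the tools in the submitters' processing notes. Versions, annotation and genome build were not given in the sources used here. Per the file headers, the authors deposited 2 pairs of FPKM columns and for each gene a log2 fold change, p-value and q-value. The FPKM pair beside the authors' test was used, and the further pair, lower by a median factor of 1.14 in both libraries, served as an alternative. The sources do not say how the pairs were made or why they differ, nor what the tag back3 in the N2 column name means. Single genes can differ more between the pairs: wdr-23 in the mutant had 19.3 FPKM in the first pair and 0 in the further one, and skn-1 in N2 had 3.84 and 0. Where a test failed, the deposited p-value and q-value stand at 1.

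Differences used a pseudocount of 1 and the 2-fold rule, with no test of their own. Transcript lengths, overlaps and neighbours came from the Ensembl release 115 annotation of WBcel235, which may differ from the annotation used by the authors, so no coordinates are given. Numbers of fragments took off 220 bases from a transcript's length, the value at which low FPKM values lay nearest to whole fragments. The step fit and the 2-fold rule were tried on simulated counts of genes with a single transcript, with counting error only. There all values were whole fragments, unlike most values in these libraries. That trial therefore does not show how firm the depths are here, nor how genotypes would differ between replicates. All members were named, and of each list the genes past the rule or the authors' test, with the highest and the lowest. The members and lists were chosen with earlier results of these data known. Scripts ran in Python 3.11.15 with pandas 2.3.3, numpy 2.4.6 and scipy 1.17.1.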

Additional observations from a re-analysis of the deposited data

How the results depend on the processing

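With 1 library per genotype no replicate could be left out, and no setting changes that limit. No paired analysis was possible because each genotype had a single library. The count of members at least 2-fold higher fell to 1 after centring and to 1 among genes above 0 in all 4 FPKM columns, and was 3 at 1.5-fold and 2 in the other settings run; centring drops sod-1, and the limit to values above 0 drops sod-2. The share of all measured genes was computed for the 2-fold rule as defined above, after centring and for genes above 0 in all 4 columns. Counts in the other settings, of the members and of the lists, thus have no background and are not read as a result. For the pathway lists, 9 higher and 1 lower became 3 and 5 after centring, beside 10.5% and 14.7% of measured genes. At 1.5-fold the counts were 18 and 6. The higher count was 13 with a pseudocount of 0.1 and 2 with a pseudocount of 5. The lower count was 2 with a pseudocount of 0.1 and 4 with the further FPKM pair. Among the 43 list genes above 0 in all 4 columns, 5 were higher and 1 was lower, beside 6.57% and 3.86% of such genes. Differences ranged over the settings from 0.94 to 1.21 for sod-1, from 0.56 to 0.80 for prdx-2 and from 0.27 to 0.54 for prdx-6. Those of sod-4 were below 0 throughout, and those of the catalases and prdx-3 crossed 0 (ctl-2 from -0.19 to 0.04). The differences of sod-2 and sod-5 were not followed across settings, since 1 has a value of 0 and the other lies under 3 fragments. Values resting on few fragments, such as gpx-4 and gpx-8, are limited by depth.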
